A study of Mus musculus with 36 samples.

Results

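The comparison described here sets sorted stem and multipotent progenitor cells (HSC/MPP) against lymphoid-primed progenitors (LMPP) from control bone marrow (BM). It uses the 8 control BM libraries whose labels name these cell types, 4 of HSC/MPP and 4 of LMPP, out of 36 libraries in the series. Each of 4 mice gave a library of each type, so the libraries can be paired by mouse, and the mice are numbered 1 to 4 as in the labels. HSC/MPP cells were sorted as Lin- c-Kit+ Sca-1+ Flt3- and LMPP cells as Lin- c-Kit+ Sca-1+ Flt3+, and both were freshly sorted before RNA extraction. The control mice were Kmt2a-AFF1+ and overexpressed miR-scramble, a scrambled microRNA, and per the series' design text they were not leukaemic. The leukaemia mice used for comparison were also Kmt2a-AFF1+ and overexpressed a microRNA that the sample labels call miR-130b and the design text miR-130a. All groups thus come from mice with the fusion, and no library comes from a mouse without it. The sample labels give 4 mouse identities for the controls, whereas the design text speaks of a control mouse in the singular; the 4 identities were taken as 4 mice. The sources used here do not give age, sex, the promoter of the fusion or whether cells were transplanted. Another sorted type, LK (Lin- c-Kit+ Sca-1-, labelled LK/CLP), came from the same control mice, and its levels are given only for orientation.

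Haematopoietic stem cells sit at the top of blood formation and can renew themselves, and multipotent progenitors arise from them. Cells that gain the cytokine receptor Flt3 become biased towards lymphoid and myeloid fates and lose most of their capacity to make megakaryocytes and red cells. Stem cells divide rarely and are kept by transcription factors such as Gata2, Tal1 and Mecom, whereas lymphoid priming shows in genes such as Dntt, which encodes the terminal transferase that adds bases at antigen receptor joints. Kmt2a-AFF1 fuses a histone methyltransferase with a transcription elongation factor and is found in infant leukaemia.

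Library totals, in units of 1000000 counts (M), were 8.83, 8.62, 8.14 and 3.55 M in HSC/MPP of mice 1 to 4, against 7.37, 7.65, 9.78 and 11.9 M in LMPP. A single predicted gene, Gm10800, held 18.7 to 23.4% of these counts in HSC/MPP and 17.4 to 28.2% in LMPP. In LK its share was 3.01 to 8.53%. A background, taken as uniform along the genome and estimated from sensory receptor genes, amounted to 24.8 ± 2.89% in HSC/MPP and 21.6 ± 6.02% in LMPP (SD, n = 4 each). Background shares, here and below, are of the counts of identifiers with a known exon length, not of all counts. The groups overlapped, and the exact permutation test did not separate them (two-sided p = 0.4, where 0.0286 is the smallest p possible; within mouse p = 0.25, where 0.125 is the smallest). LMPP libraries ranged more widely in the number of genes above background than HSC/MPP libraries, which had 4253 to 6688. The LMPP library of mouse 1 had 2875 such genes and that of mouse 4 had 9934, with a background of 14.2%. Levels are given in counts per 1000000 (CPM), scaled by the trimmed mean of M values over the 11112 genes tested, and background was not subtracted from them. A gene was tested when it lay above background in at least 4 of the 12 control libraries.

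**Figure D1:**
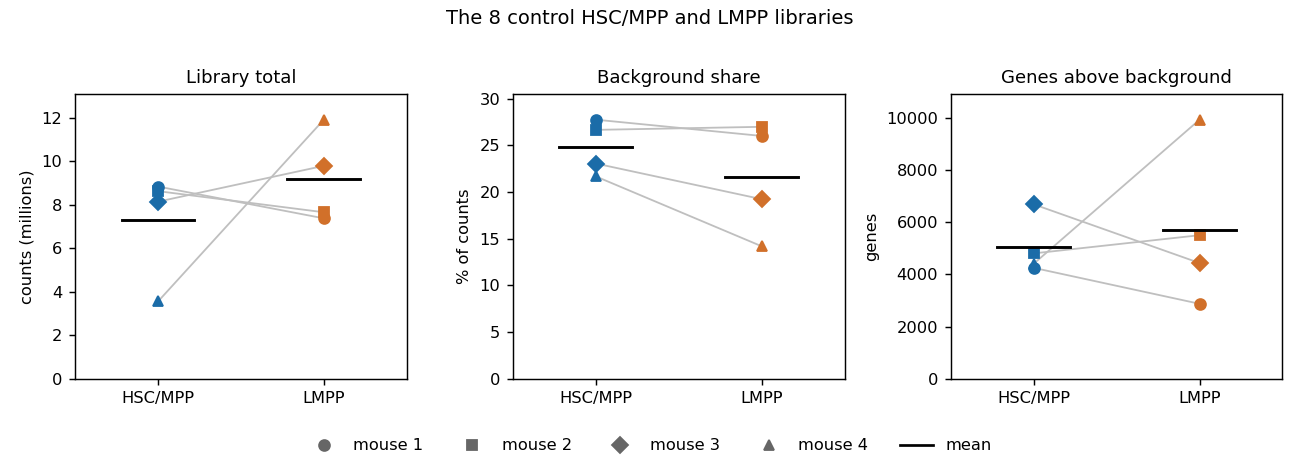
Library totals (M counts), background share (% of counts of identifiers with a known exon length) and number of genes above background in the 8 control libraries. Points are libraries, shaped by mouse, with HSC/MPP left of LMPP; grey lines join the libraries of a mouse and bars are means. The HSC/MPP library of mouse 4 has 3.55 M counts, and the LMPP library of mouse 4 has 9934 genes above background.

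HSC/MPP and LMPP differed in 249 of 11112 genes (2.24%) at an edgeR adjusted p under 0.05, of which 61 (0.549%) were higher and 188 (1.69%) lower in HSC/MPP. With the mouse as a block, 103 genes (0.927%) passed, 33 higher and 70 lower. The median log2 fold change of all genes tested, HSC/MPP minus LMPP, was 0.012. Of these genes 5729 had a positive and 5383 a negative log2 fold change. The counts given for gene lists below are to be read beside these shares. In bulk samples, fewer cells that carry a transcript and less of it per cell cannot be told apart. Among the called genes, the groups of 4 did not overlap for 59 of the 61 higher ones and for 150 of the 188 lower ones. Over all genes tested, HSC/MPP lay wholly above LMPP in 3.24% and wholly below in 3.66%. The called genes were chosen by the same values, so their larger share is no separate support. Of the genes called lower in HSC/MPP, 72.3% had their highest LMPP level in the library of mouse 4 and 74.5% their lowest in that of mouse 1, against 30.7% and 27.3% of all genes tested. A fit of the 8 libraries alone gave 89 calls, and 76 with their background share as covariate. Beyond that, the part of these libraries' background in the calls was not tested. Leaving out the LMPP library of mouse 1 gave 966 calls, that of mouse 3 gave 80, that of mouse 4 gave 121 and leaving out both mouse 1 and mouse 4 gave 338. Leaving out any HSC/MPP library gave 82 to 85 calls. The 249 genes kept their direction in each of these fits. The fits reuse most of the libraries that chose the genes, so this is no separate support.

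The genes that lead the lower side include the class II major histocompatibility (MHC) genes, which encode the molecules that present antigen to helper T cells. Their promoters are known for a shared set of elements, one of which is the Y box, an inverted CCAAT motif. The promoters of H2-Aa and H2-Eb1 are shown because both genes were lower in HSC/MPP together with H2-Ab1 and because both hold a Y box core. The sequences are RefSeq's, build GRCm38.p6, 250 bases before to 50 after the annotated start, with the motif CTGATTGG in capitals. H2-Aa lies at chr17:34287774-34288073 on the minus strand and H2-Eb1 at chr17:34305617-34305916 on the plus strand.
H2-Aa: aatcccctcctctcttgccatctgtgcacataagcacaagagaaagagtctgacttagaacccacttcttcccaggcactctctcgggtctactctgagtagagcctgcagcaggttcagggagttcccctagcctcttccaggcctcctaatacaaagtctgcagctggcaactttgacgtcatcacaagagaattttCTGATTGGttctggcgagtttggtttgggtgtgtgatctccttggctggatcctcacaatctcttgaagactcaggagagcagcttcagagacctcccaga
H2-Eb1: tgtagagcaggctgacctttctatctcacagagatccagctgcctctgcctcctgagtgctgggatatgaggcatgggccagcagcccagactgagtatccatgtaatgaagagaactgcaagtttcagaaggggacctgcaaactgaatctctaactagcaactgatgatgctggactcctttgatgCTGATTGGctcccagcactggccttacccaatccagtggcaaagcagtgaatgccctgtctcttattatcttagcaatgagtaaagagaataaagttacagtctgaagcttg
The motif begins 51 bases upstream of the start in H2-Aa and 62 bases upstream in H2-Eb1. On either strand, 1346 of 32851 promoters of this length (4.10%) hold it. Of the 18 listed MHC genes 13 matched a promoter entry, H2-Ab1 not among them. The motif is in 7 of these 13, namely H2-Aa, H2-Eb1, the class I genes H2-K1 and H2-D1, and H2-Oa, Psmb9 and Tap1. A match describes the letters only.

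The genes of the gate were examined to check the labels. Flt3, the receptor that the gate used to part the cells, had 52.1, 44.6, 44.4 and 44.9 CPM in HSC/MPP of mice 1 to 4, against 189, 213, 305 and 504 CPM in LMPP. HSC/MPP lay below every LMPP library, by a log2 fold change of -2.70 ± 0.26 (SE; edgeR adjusted p = 1.31e-05), which is no finding, since Flt3 chose the cells. Background of Flt3 was estimated at 17.9 CPM in HSC/MPP, so part of the level there is background. Kit and Ly6a (which encodes Sca-1), present on both sorted types, did not pass the test, with log2 fold changes of 0.18 ± 0.15 and 0.17 ± 0.24. Kit averaged 179.8 ± 13.4 CPM in HSC/MPP and 159 ± 36.2 CPM in LMPP (SD, n = 4 each). Of the markers of LK cells, Mpo, the myeloperoxidase of granules, averaged 81.6 CPM in HSC/MPP and 94.1 CPM in LMPP, beside 5197 CPM in LK. Elane, a neutrophil protease, had 7.59 to 23.1 CPM in HSC/MPP and 3.22 to 7.30 CPM in LMPP, beside 869.8 CPM in LK on average.

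Among the surface genes that were not part of the stated gate, Cd34, a sialomucin of progenitors, fell in HSC/MPP. It had 70.5, 73.0, 76.4 and 62.6 CPM in HSC/MPP and 115, 118, 162 and 169 CPM in LMPP. These groups did not overlap (log2 fold change -0.99 ± 0.15, edgeR adjusted p = 0.00108). Cd48, a marker whose absence is used to enrich stem cells, also fell, with 5.92 to 15.7 CPM in HSC/MPP and 15.4 to 26.0 CPM in LMPP (-0.96 ± 0.24, edgeR adjusted p = 0.0417). Its groups overlapped slightly, and the call held in 2 of the 8 fits that left out a library (adjusted p up to 0.134 without the LMPP library of mouse 3). Slamf1, a stem cell marker encoding CD150, did not pass the background filter. Its values were 39.9 to 46.8 CPM in HSC/MPP and 13.5 to 32.1 CPM in LMPP, without overlap. Fcgr3 (0.26 ± 0.16) and Cd27 (-0.52 ± 0.18) did not pass the test.

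Among the listed transcription factors of stem cells, Gata2, Tal1 and Mycn were called higher in HSC/MPP, whereas Mecom, Hlf, Meis1, Gfi1b, Lmo2, Erg and Hoxa9 were tested and not called. Gata2, which is needed to keep stem cells, had 129, 109, 121 and 126 CPM in HSC/MPP of mice 1 to 4, against 51.4, 45.7, 51.4 and 37.4 CPM in LMPP. The 4 HSC/MPP libraries lay close together and all above LMPP, with a log2 fold change of 1.39 ± 0.13 (edgeR adjusted p = 1.01e-05). Tal1, a partner of Gata2 that specifies blood stem cells, had 59.5, 52.7, 46.0 and 49.8 CPM in HSC/MPP and 28.0, 30.5, 25.6 and 27.8 CPM in LMPP. Again no library crossed over (0.90 ± 0.12, edgeR adjusted p = 0.000392). Mycn, a Myc family factor, had 55.2, 36.0, 45.8 and 48.8 CPM in HSC/MPP and 16.9, 10.2, 21.1 and 31.1 CPM in LMPP (1.21 ± 0.24, edgeR adjusted p = 0.0143). Its call was lost in 3 of the 8 fits that left out a library, with an adjusted p up to 0.0617 without the HSC/MPP library of mouse 1. Zfpm1, the Gata cofactor FOG1, had 104, 99.2, 115 and 87.8 CPM in HSC/MPP and 29.0, 46.1, 46.3 and 46.7 CPM in LMPP, which was 1.27 ± 0.16 higher in HSC/MPP (edgeR adjusted p = 0.000347).

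Further genes of stem cells were called higher as well. Tgm2, a transglutaminase, had 45.7, 39.4, 46.4 and 58.2 CPM in HSC/MPP and 20.8, 23.997, 11.1 and 14.3 CPM in LMPP (1.43 ± 0.20, edgeR adjusted p = 0.000699). Its LMPP level was close to its background of 12.6 CPM. Ifitm1, an interferon-inducible membrane protein, had 17.3 to 28.9 CPM in HSC/MPP and 5.20 to 14.1 CPM in LMPP (1.09 ± 0.27, edgeR adjusted p = 0.044), a call that held in 1 of the 8 fits without a library (adjusted p up to 0.146 without the HSC/MPP library of mouse 1). Tgfbr3, a co-receptor of the TGF-beta family, rose by 0.87 ± 0.18 (edgeR adjusted p = 0.0214; up to 0.0746 without the HSC/MPP library of mouse 1).

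Of the 47 listed stem cell regulators and long-term HSC genes, 22 passed the background filter. Of these 22, 7 were called higher in HSC/MPP, against 0.549% of all genes tested, and 0 lower. The median log2 fold change of the 22 was 0.40. Those called included Gata2, Tal1, Mycn, Tgm2, Ifitm1 and Vwf. The summed level of the list was 2608 to 2749.9 CPM in HSC/MPP and 1984 to 2395 CPM in LMPP, so the groups did not overlap. Sums of lists, here and below, take in all matched members, also those that failed the background filter. Background was not subtracted from the sums, and its part in them was not tested. Several genes best known from stem cells did not pass the test. Mecom, a factor that maintains stem cells, had 137 to 161 CPM in HSC/MPP and 109 to 133 CPM in LMPP, without overlap (0.25 ± 0.14, edgeR adjusted p = 0.389). Hlf, a factor of long-term stem cells, had 128 to 140.3 CPM in HSC/MPP and 99.1 to 195 CPM in LMPP (-0.021 ± 0.17, edgeR adjusted p = 0.963). Meis1, a partner of Hox proteins, had 164, 138, 129 and 121 CPM in HSC/MPP and 71.6, 84.5, 108 and 115 CPM in LMPP; its groups did not overlap, but it missed the threshold (0.54 ± 0.15, edgeR adjusted p = 0.0618). Fgd5 (0.60 ± 0.24, edgeR adjusted p = 0.221) also missed it. Procr and Hoxb5, further markers of stem cells, did not pass the background filter; Procr had 15.9 to 24.5 CPM in HSC/MPP and 6.61 to 13.1 CPM in LMPP, and Hoxb5 had 8.53 to 17.3 CPM in HSC/MPP and 10.6 to 16.7 CPM in LMPP. Among the genes taken as HSC/MPP markers, Gata2 and Vwf were thus called higher, Mecom, Hlf and Fgd5 were not called, and Slamf1, Procr and Hoxb5 were not tested.

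**Figure D2:**
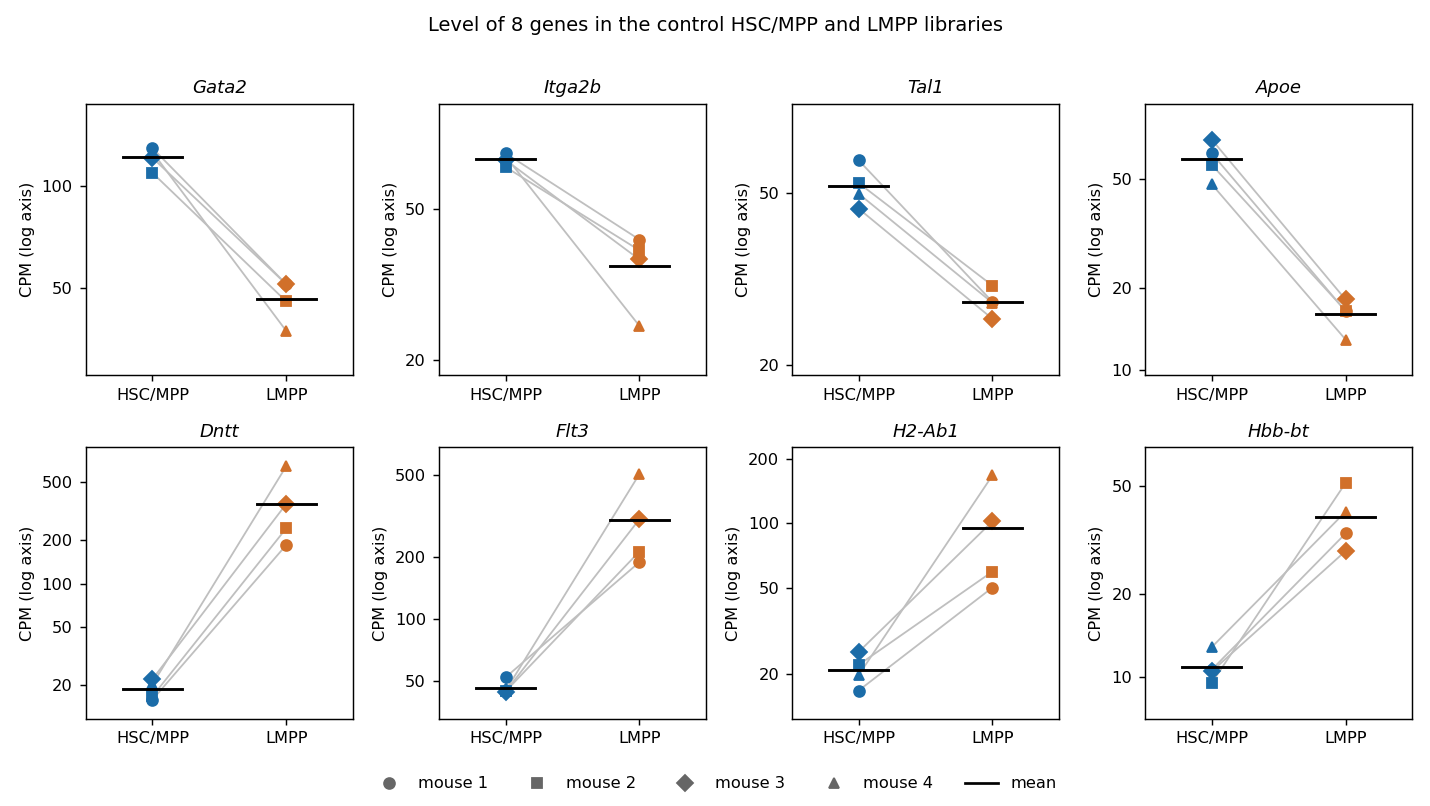
CPM on a log axis of 4 genes higher and 4 genes lower in HSC/MPP, in the 8 control libraries. Points are libraries, shaped by mouse, with HSC/MPP left of LMPP; grey lines join the libraries of a mouse and bars are means. Gata2 ran from 109 to 129 CPM in HSC/MPP and from 37.4 to 51.4 CPM in LMPP, and the groups do not overlap in any panel.

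Megakaryocyte and platelet genes leaned towards HSC/MPP. Of 25 listed, 16 passed the filter, and all 16 had a positive log2 fold change, against 5729 of all 11112 genes tested. Of the 16, 5 were called higher, against 0.549% of all genes tested, and 0 lower. The median of the list was 0.38. The called genes included Zfpm1, described above, Itga2b, F2r and Vwf. Itga2b, the platelet integrin CD41, had 70.3, 64.7, 67.5 and 69.0 CPM in HSC/MPP and 41.6, 39.0, 36.9 and 24.6 CPM in LMPP (0.95 ± 0.14, edgeR adjusted p = 0.00103). F2r, a thrombin receptor, had 41.0, 40.6, 53.3 and 39.0 CPM in HSC/MPP and 25.7, 20.3, 23.0 and 19.3 CPM in LMPP (0.99 ± 0.14, edgeR adjusted p = 0.000949). Vwf, the von Willebrand factor, had 128, 134, 132 and 160 CPM in HSC/MPP and 105, 97.3, 74.1 and 62.5 CPM in LMPP. Background of Vwf was estimated at 46.6 CPM in HSC/MPP and 44.0 CPM in LMPP. None of these genes had a library that crossed over, but the call for Vwf (0.71 ± 0.16, edgeR adjusted p = 0.0284) was lost with the mouse as a block (adjusted p = 0.069) and held in 2 of the 8 fits without a library (adjusted p up to 0.102 without the HSC/MPP library of mouse 4). Of genes typical of platelets, Ppbp, Gp9, Gp1bb, Gp6 and Tubb1 did not pass the background filter, and Pf4, a platelet chemokine, was tested and not called. Pf4 had 4.74 to 7.78 CPM in HSC/MPP and 4.43 to 5.06 CPM in LMPP (0.44 ± 0.29). The list, with the members that failed the filter and with background, summed to 939 to 1009.7 CPM in HSC/MPP and 529 to 755 CPM in LMPP.

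The erythroid list held called genes in both directions, though 17 of its 20 tested genes had a positive log2 fold change. Of 22 listed genes 21 were matched and 20 passed the filter. In HSC/MPP 4 were called higher and 3 lower, against 0.549% and 1.69% of all genes tested. The median of the list was 0.31. Beside Tal1 and Zfpm1, the higher ones were Aqp1, a water channel of red cells, and Car1, a carbonic anhydrase. Aqp1 had 25.2, 28.6, 28.4 and 28.6 CPM in HSC/MPP and 16.2, 13.1, 10.3 and 9.28 CPM in LMPP (1.21 ± 0.17, edgeR adjusted p = 0.000699), beside 132 CPM in LK on average. Car1 had 22.1, 20.1, 14.8 and 13.3 CPM in HSC/MPP and 8.73, 9.60, 4.23 and 9.002 CPM in LMPP (1.18 ± 0.23, edgeR adjusted p = 0.0106), beside 312 CPM in LK. Its call was lost in 2 of the 8 fits without a library (adjusted p up to 0.0577 without the HSC/MPP library of mouse 1). The adult beta-globin genes fell in HSC/MPP, whereas the alpha-globin genes Hba-a1 (0.30) and Hba-a2 (0.13) were not called. Hbb-bt had 10.6, 9.48, 10.5 and 12.8 CPM in HSC/MPP and 33.4, 51.1, 28.8 and 40.1 CPM in LMPP (-1.85 ± 0.23, edgeR adjusted p = 0.000278). Hbb-bs had 8.81, 11.6, 5.72 and 9.37 CPM in HSC/MPP and 24.1, 41.7, 21.1 and 28.1 CPM in LMPP (-1.70 ± 0.26, edgeR adjusted p = 0.00121). These globin genes are near-identical, so the split of counts between them is uncertain, and in LK Hbb-bt averaged 3.79 CPM and Hbb-bs 3.96 CPM. Tfrc, the transferrin receptor, had 21.2 to 28.9 CPM in HSC/MPP and 28.03 to 47.5 CPM in LMPP (-0.69 ± 0.16, edgeR adjusted p = 0.0385; up to 0.132 without the LMPP library of mouse 3). Klf1, the erythroid master factor, missed the threshold at 0.85 ± 0.23 (edgeR adjusted p = 0.0597), with 7.78 to 13.3 CPM in HSC/MPP, 4.23 to 7.87 CPM in LMPP and 58.5 CPM in LK.

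Dntt and other genes of lymphoid priming fell in HSC/MPP, while immunoglobulin transcripts, described further on, rose. Of 41 listed, 21 passed the filter, 16 had a negative log2 fold change, and the median was -0.40. In HSC/MPP 8 were called lower and 3 higher, against 1.69% and 0.549% of all genes tested. The 8 include Flt3, whose call the gate fixed, and the 3 higher were Igkc, Ighm and Jchain. Dntt had the largest fall of all called genes. It had 15.8, 16.7, 21.9 and 20.2 CPM in HSC/MPP of mice 1 to 4, against 185, 241, 355 and 647 CPM in LMPP. HSC/MPP stood far below LMPP in each mouse, with a log2 fold change of -4.27 ± 0.33 (edgeR adjusted p = 1.82e-06), and LK averaged 19.6 CPM. Notch1, the receptor that drives T lineage choice, had 85.9, 96.5, 103 and 106 CPM in HSC/MPP and 128, 152, 165 and 299 CPM in LMPP (-0.93 ± 0.20, edgeR adjusted p = 0.0217). Satb1, a chromatin organiser of lymphoid progenitors, had 65.8, 55.0, 48.0 and 83.3 CPM in HSC/MPP and 102, 109, 144 and 165 CPM in LMPP (-1.07 ± 0.18, edgeR adjusted p = 0.00281). In HSC/MPP it lay near its background of 55.2 CPM. These genes did not overlap between the groups.

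Gpr171, Mef2c and Ikzf1 were also among the lymphoid genes called lower in HSC/MPP. Gpr171, a G protein-coupled receptor, had 13.3 to 16.7 CPM in HSC/MPP and 22.6 to 51.5 CPM in LMPP (-1.12 ± 0.22, edgeR adjusted p = 0.0138). Neither group reached into the other for Gpr171. Ikzf1, the lymphoid factor Ikaros, had 73.5 to 96.5 CPM in HSC/MPP and 93.7 to 256 CPM in LMPP (-0.97 ± 0.23, edgeR adjusted p = 0.0356; 0.069 with the mouse as a block). Mef2c had 78.4 to 91.0 CPM in HSC/MPP and 106 to 246 CPM in LMPP (-0.97 ± 0.20, edgeR adjusted p = 0.0206; 0.0558 with the block). Without single libraries, the calls were lost in 4 of 8 fits for Notch1 (adjusted p up to 0.0764 without the HSC/MPP library of mouse 1), in 3 for Gpr171 (0.0547 without the LMPP library of mouse 3), in 5 for Mef2c (0.0809) and in 6 for Ikzf1 (0.123), the last pair without the HSC/MPP library of mouse 4. Rag1, a recombinase of antigen receptor genes, and Il7r, the interleukin 7 receptor, did not pass the background filter. Rag1 had 20.5 to 27.4 CPM in HSC/MPP and 16.9 to 30.005 CPM in LMPP, close to its background of 19.2 CPM in HSC/MPP, and Il7r had 15.9 to 17.2 CPM in HSC/MPP and 13.4 to 26.4 CPM in LMPP. Among the genes taken as LMPP markers and not used by the gate, Dntt, Notch1 and Satb1 were thus called lower in HSC/MPP, Il7r and Rag1 were not tested and Ighm went the other way.

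Antigen presentation genes were lower in HSC/MPP for class II. H2-Ab1, the beta chain of I-A, had 16.7, 21.9998, 25.3 and 19.7 CPM in HSC/MPP and 50.3, 59.7, 102 and 167 CPM in LMPP (-2.19 ± 0.31, edgeR adjusted p = 0.000897). H2-Aa, its alpha chain, had 21.6, 25.4, 30.004 and 23.7 CPM in HSC/MPP and 41.9, 52.4, 79.5 and 84.8 CPM in LMPP (-1.36 ± 0.24, edgeR adjusted p = 0.00452). H2-Eb1, the beta chain of I-E, had 16.7, 12.1, 14.2 and 7.89 CPM in HSC/MPP and 22.1, 35.3, 48.5 and 75.1 CPM in LMPP (-1.79 ± 0.30, edgeR adjusted p = 0.00397). For these chains the groups did not overlap, and the 3 calls held in each of the 8 fits without a library. Over 12 fits that left out a library or a whole mouse, H2-Ab1 was called in 12, H2-Eb1 in 10 and H2-Aa in 9. The largest edgeR adjusted p was 0.0740 for H2-Eb1, without mouse 3, and 0.0529 for H2-Aa, without mouse 4. Cd74, the invariant chain that escorts class II molecules, had 21.9, 22.9, 82.3 and 17.3 CPM in HSC/MPP and 49.3, 84.9, 140.0 and 299 CPM in LMPP. The HSC/MPP library of mouse 3 reached into the LMPP range (-1.96 ± 0.48, edgeR adjusted p = 0.0422); without it the change was -2.77, and without the LMPP library of mouse 4 it was -1.29 (adjusted p = 0.127). The call held in 3 of the 8 fits without a library. Class I genes did not pass the test: B2m, the shared light chain, had 170.1 to 219 CPM in HSC/MPP and 149 to 332 CPM in LMPP (-0.31 ± 0.19). Of 18 listed MHC genes, 16 passed the filter, and 15 of those had a negative log2 fold change, against 5383 of all 11112 genes tested. Called lower were 4, against 1.69% of all genes tested. The median of the list was -0.28.

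Markers of other cells that could bring class II transcripts were set beside them. Of 16 listed dendritic cell genes, 7 passed the filter. Of these 7, 2 were called lower in HSC/MPP, Flt3, whose call the gate fixed, and Irf8, against 1.69% of all genes tested. The Irf8 call held in 4 of the 8 fits without a library. Irf8, a factor of dendritic cells and monocytes, had 32.7 to 53.7 CPM in HSC/MPP and 50.6 to 113 CPM in LMPP (-0.98 ± 0.21, edgeR adjusted p = 0.0217; up to 0.0858 without the HSC/MPP library of mouse 3). The defining genes Siglech, Xcr1 and Clec9a did not pass the filter and had means of 18.5, 17.9 and 13.8 CPM in HSC/MPP and 17.9, 18.5 and 18.5 CPM in LMPP, with backgrounds of 9.81, 12.9 and 9.55 CPM in HSC/MPP. Of 14 B cell genes, 2 passed, with Cd74 called and Cd79b not (0.33 ± 0.30). The summed level of the dendritic list was 499.7 to 523 CPM in HSC/MPP and 710.0 to 1167 CPM in LMPP, Flt3 included. That of the B cell list was 289 to 371 CPM in HSC/MPP and 343 to 473 CPM in LMPP, Cd74 included. Cd74 alone had 17.3 to 82.3 CPM in HSC/MPP and 49.3 to 299 CPM in LMPP, so the B cell sum is no separate measure beside class II. The part of dendritic and B cells in the class II difference was not tested.

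The granulocyte and monocyte genes that were called were lower in HSC/MPP. Of 31 listed granulocyte and monocyte genes 30 were matched, all 30 of these passed the filter, 0 were called higher and 3 lower in HSC/MPP (Clec12a, Irf8 and Cd48), against 1.69% called lower over all genes tested, and the median was -0.0034. Clec12a, an inhibitory lectin receptor of myeloid cells, had 16.7, 20.3, 9.87 and 16.8 CPM in HSC/MPP and 37.5, 43.8, 37.1 and 42.3 CPM in LMPP, without overlap (-1.34 ± 0.16, edgeR adjusted p = 0.000278). The HSC/MPP level was at its background of 16.04 CPM, and LK averaged 113 CPM. Outside the lists, Mpeg1, the pore-forming perforin-2 of phagocytes, had 12.2, 12.9, 13.03 and 18.7 CPM in HSC/MPP and 29.3, 44.9, 71.3 and 91.3 CPM in LMPP (-2.13 ± 0.30, edgeR adjusted p = 0.00073). Here too HSC/MPP lay at the background, 12.6 CPM. Il12a, a subunit of interleukin 12, had 13.8, 18.2, 12.4 and 11.3 CPM in HSC/MPP and 32.1, 41.3, 49.9 and 86.1 CPM in LMPP (-1.89 ± 0.25, edgeR adjusted p = 0.000392). Plac8, a gene of myeloid and lymphoid progenitors, had 14.8 to 26.2 CPM in HSC/MPP and 37.7 to 90.3 CPM in LMPP (-1.50 ± 0.23, edgeR adjusted p = 0.00169), beside 283 CPM in LK.

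Apoe, the apolipoprotein E made by macrophages and also by stem and progenitor cells, had the smallest p on the higher side. It had 62.0, 56.3, 69.7 and 47.8 CPM in HSC/MPP and 16.4, 16.5, 18.1 and 12.9 CPM in LMPP, with no overlap (1.91 ± 0.16, edgeR adjusted p = 2.12e-06), and 78.8 CPM in LK on average. It was the 1 called gene of the macrophage list, of whose 15 genes 4 passed the filter; the defining genes C1qa, C1qb and Adgre1 did not pass and averaged 5.14, 8.23 and 18.6 CPM in HSC/MPP and 5.26, 4.82 and 15.7 CPM in LMPP. Of 14 mature neutrophil genes, 7 passed and 0 were called (S100a8 -0.88 ± 0.41, edgeR adjusted p = 0.279). T and NK cell genes gave 1 tested member of 17, Nkg7 (-0.29 ± 0.21), which was not called. Among 10 tested mast cell, basophil and eosinophil genes, Gata2 was called; Prg2, a granule protein, had 11.2 to 29.1 CPM in HSC/MPP and 7.05 to 14.8 CPM in LMPP (0.82 ± 0.44). In the endothelial and stromal list, 8 of 19 passed, and Vwf and Tie1, an endothelial receptor that stem cells also carry, were called higher. Tie1 had 52.7 to 72.8 CPM in HSC/MPP and 26.6 to 47.4 CPM in LMPP (0.85 ± 0.20, edgeR adjusted p = 0.0377; up to 0.132 without the LMPP library of mouse 3). The endothelial genes Cdh5 (0.45 ± 0.23) and Pecam1 (-0.38 ± 0.13) did not pass the test. The endothelial and stromal list summed to 837 to 932 CPM in HSC/MPP and 534 to 833 CPM in LMPP. The summed macrophage list was 309 to 329 CPM in HSC/MPP and 200.01 to 309 CPM in LMPP, the neutrophil list 181 to 222 CPM in HSC/MPP and 117 to 243 CPM in LMPP, and the T and NK list 242 to 297 CPM in HSC/MPP and 171 to 294 CPM in LMPP. The mast cell list was 533 to 582 CPM in HSC/MPP, above the 409.7 to 443 CPM in LMPP. No gene of these lists was at 0 in all 4 libraries of either type.

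Immunoglobulin transcripts gave the largest rises in HSC/MPP. Igkc, the constant region of the kappa light chain, had 212, 271, 2776 and 295 CPM in HSC/MPP of mice 1 to 4, against 3.85, 6.53, 2.82 and 4.08 CPM in LMPP. Ighm, the mu heavy chain, had 352, 430.3, 5469.5 and 569.5 CPM in HSC/MPP and 39.0, 67.0, 79.7 and 229 CPM in LMPP. Jchain, which joins secreted IgM and IgA, had 61.1, 61.4, 719 and 76.9 CPM in HSC/MPP and 5.91, 5.76, 5.64 and 21.4 CPM in LMPP. The HSC/MPP library of mouse 3 was far above the other HSC/MPP libraries in all of these, yet the remaining HSC/MPP libraries also lay above every LMPP library. The log2 fold changes were 7.67 ± 0.86 for Igkc (edgeR adjusted p = 9.32e-05), 4.03 ± 0.76 for Ighm (0.0102) and 4.49 ± 0.74 for Jchain (0.00276). Without the HSC/MPP library of mouse 3 they were 5.89 (adjusted p = 3.62e-08), 2.11 (0.0154) and 2.71 (0.00113). Ighm lost its call without the LMPP library of mouse 3 (adjusted p = 0.0596).

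**Figure D3:**
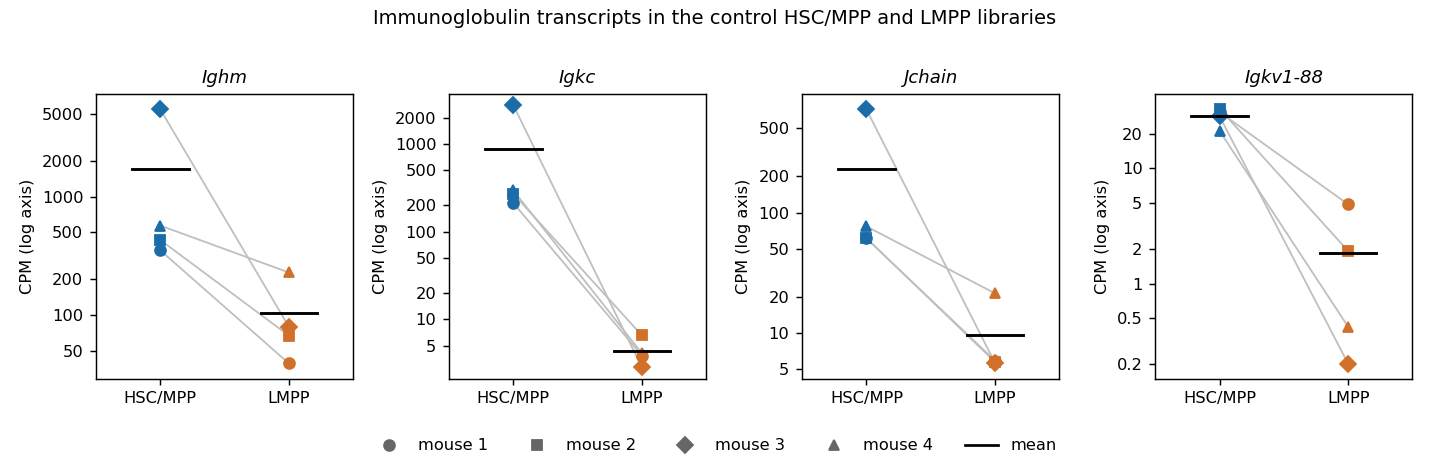
CPM on a log axis of Ighm, Igkc, Jchain and Igkv1-88 in the 8 control libraries. Points are libraries, shaped by mouse, with HSC/MPP left of LMPP; grey lines join the libraries of a mouse and bars are means. Igkc reaches 2776 CPM in HSC/MPP of mouse 3, and the other HSC/MPP libraries at 212 to 295 CPM also lie above the 2.82 to 6.53 CPM of LMPP.

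Counts of immunoglobulin variable region genes were examined next. Igkv1-88 had 172, 174, 144 and 43 counts in HSC/MPP and 19, 10, 1 and 3 counts in LMPP, or 30.9, 33.0, 28.4 and 21.2 CPM against 4.88, 1.92, 0.201 and 0.422 CPM (4.10 ± 0.65, edgeR adjusted p = 0.00179). Igkv8-27 had 5.92 to 11.5 CPM in HSC/MPP and 1.27 to 3.46 CPM in LMPP (2.08 ± 0.44, edgeR adjusted p = 0.0213; up to 0.0744 without the HSC/MPP library of mouse 2). Both passed the background filter through HSC/MPP libraries and the LK library of mouse 2, with no LMPP library above it. The filter thus picked them for high HSC/MPP counts, and their rise is no separate support. Both are members of a family of similar genes, so their counts are uncertain. In HSC/MPP of mouse 3, Igkv10-96 held 25.1% and Igkv3-2 19.3% of the counts of kappa variable genes, and Ighv9-3 held 31.3% of those of heavy chain variable genes. In HSC/MPP of mouse 4, Igkv10-96 also led, with 16.2%, and Ighv1-9 held 16.9%. In HSC/MPP of mouse 2, Igkv3-4 led with 19.6% and Ighv1-53 with 16.3%. The leaders were weakest in HSC/MPP of mouse 1, where Igkv1-88 held 9.45% and Ighv5-16 held 5.53%. In LMPP the leading kappa gene held 2.80 to 4.55%, and the leading heavy gene 2.39 to 3.78% in mice 1 to 3 but 31.7% (Ighv7-3) in mouse 4, whose LMPP library also had 46.6 CPM of the lambda constant gene Iglc1, against 0.604 to 2.50 CPM in the other LMPP libraries. The 100 kappa variable genes totalled 757 to 11267 counts in HSC/MPP and 542 to 813 in LMPP. The 113 heavy chain variable genes totalled 717 to 8141 counts in HSC/MPP and 740 to 1017 in LMPP. Background, estimated for Igkv1-88 at 4.74 counts in HSC/MPP on average, was not subtracted. With totals this low, much of the LMPP counts may be background, and its part in the shares was not tested.

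The list of 22 plasma cell genes was chosen after these values were seen and is given without a test. Its summed level was 928, 1081, 9845 and 1333 CPM in HSC/MPP and 369.5, 381, 344 and 522 CPM in LMPP, immunoglobulin genes included. The plasma cell genes Mzb1, Sdc1 and Prdm1 did not pass the background filter. Mzb1 had 0.569 to 6.12 CPM in HSC/MPP and 1.03 to 2.88 CPM in LMPP, Sdc1 16.7 to 30.4 CPM in HSC/MPP and 23.8 to 30.8 CPM in LMPP, and Prdm1 19.7 to 26.8 CPM in HSC/MPP and 11.0 to 23.6 CPM in LMPP. Txndc5, an enzyme of the secretory pathway, had 32.5, 36.6, 108 and 38.0 CPM in HSC/MPP and 27.5, 30.5, 27.6 and 30.1 CPM in LMPP. Xbp1, the factor that builds that pathway, had 26.2, 27.3, 57.0 and 28.6 CPM in HSC/MPP and 20.8, 16.5, 22.4 and 36.4 CPM in LMPP. Both were highest in HSC/MPP of mouse 3, and neither passed the test. The part of plasma cells in the sort was not tested.

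Cell cycle genes leaned towards LMPP. All 47 listed passed the filter, and 41 had a negative log2 fold change, against 5383 of all 11112 genes tested. In HSC/MPP 8 were called lower, against 1.69% of all genes tested, and 0 higher. The median of the list was -0.38. Top2a, the topoisomerase that untangles replicated chromosomes, had 105, 101, 99.9 and 98.1 CPM in HSC/MPP and 137, 179.7, 222 and 256 CPM in LMPP. The groups did not overlap (-0.98 ± 0.17, edgeR adjusted p = 0.00397), and LK averaged 376 CPM. Kif23, a motor of cell division, had 37.0 to 39.4 CPM in HSC/MPP and 52.1 to 69.1 CPM in LMPP (-0.64 ± 0.13, edgeR adjusted p = 0.0138). Bub1, a spindle checkpoint kinase, had 8.49 to 14.7 CPM in HSC/MPP, at its background of 12.6 CPM, and 21.9 to 23.6 CPM in LMPP (-0.90 ± 0.18, edgeR adjusted p = 0.0148). Mcm4, a subunit of the replicative helicase, had 32.7 to 47.4 CPM in HSC/MPP and 40.3 to 89.3 CPM in LMPP (-0.89 ± 0.19, edgeR adjusted p = 0.0218). Mki67, Kif11, Pcna and Tpx2 were also called lower, with log2 fold changes of -0.91, -0.79, -0.76 and -0.45, but with the mouse as a block 4 of the 8 calls were lost, those of Mki67 (adjusted p = 0.132), Kif11 (0.0558), Pcna (0.0871) and Tpx2 (0.111). Among the 8 fits without a library, Top2a was called in each, Kif23 in 7, Bub1 in 6, Mcm4 in 4, Kif11 in 3, Pcna in 2 and Mki67 and Tpx2 in 1; the largest adjusted p was 0.175, for Mki67 without the HSC/MPP library of mouse 2. Over 12 fits that left out a library or a whole mouse, Top2a was called in 10, Kif23 in 8, Bub1 in 7 and Mcm4 in 5. Kif11 was called in 4 of these 12, Pcna in 3, Mki67 in 2 and Tpx2 in 1. The summed level of the list was 2292 to 2418 CPM in HSC/MPP and 2437 to 3909 CPM in LMPP.

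Replication-dependent histone genes, picked out after their values were seen, moved in the same direction. Of 59 tested, 58 had a negative log2 fold change, and the median was -0.95. In HSC/MPP 22 were called lower (5 with the mouse as a block), against 1.69% of all genes tested (0.63% with the block). Hist1h1a, a linker histone, had 47.6, 41.5, 40.9 and 33.5 CPM in HSC/MPP and 56.2, 150.3, 94.4 and 172 CPM in LMPP, without overlap (-1.52 ± 0.25, edgeR adjusted p = 0.00276), and LK averaged 313 CPM. Their copies are near-identical, so counts of single genes are uncertain. H2afy, which encodes the histone variant macroH2A1, had 172, 179, 192 and 155 CPM in HSC/MPP and 292, 378, 492 and 798 CPM in LMPP (-1.49 ± 0.23, edgeR adjusted p = 0.00169). Its groups stayed apart in all mice. Of 25 listed quiescence and cell cycle inhibitor genes, 16 passed and 1 was called, Btg2, an antiproliferative gene, which had 11.8 to 17.3 CPM in HSC/MPP and 21.5 to 28.0 CPM in LMPP (-0.87 ± 0.19, edgeR adjusted p = 0.0217; 0.0585 with the mouse as a block; up to 0.0856 without the HSC/MPP library of mouse 2). Btg2 was also the 1 called gene of 11 tested immediate early and heat shock genes.

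Genes of protein synthesis and respiration gave 1 call. Of 58 cytosolic ribosomal protein genes 57 passed the filter. All 57 had a negative log2 fold change, against 5383 of all 11112 genes tested, from -0.66 to -0.24 with a median of -0.45. While 39 had an unadjusted p under 0.05, 0 of the 57 were called (smallest edgeR adjusted p = 0.0988). Their summed level was 9848, 9444, 9189.8 and 7998 CPM in HSC/MPP and 8594, 11484, 11206 and 18749 CPM in LMPP, so the groups overlapped and the LMPP library of mouse 4 stood out. Of 39 oxidative phosphorylation genes, all of which passed, 31 had a negative log2 fold change and 1 was called, Ndufa4, a respiratory chain subunit, with 9.86 to 11.9 CPM in HSC/MPP and 16.9 to 27.7 CPM in LMPP (-0.93 ± 0.17, edgeR adjusted p = 0.00709). Of 27 glycolysis and hypoxia genes, 21 passed and 0 were called; Pdk1, which holds pyruvate back from the mitochondria, came nearest at -0.39 ± 0.15 (edgeR adjusted p = 0.191). The 8 tested BCL2 family genes gave 0 calls, with Bcl2 at -0.36 ± 0.14 (edgeR adjusted p = 0.19). Among 12 tested interferon response genes 1 was called, Ifi203, with 49.8 to 73.7 CPM in HSC/MPP and 73.7 to 126 CPM in LMPP (-0.70 ± 0.17, edgeR adjusted p = 0.0403; 0.086 with the block; up to 0.146 without the LMPP library of mouse 3).

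**Figure D4:**
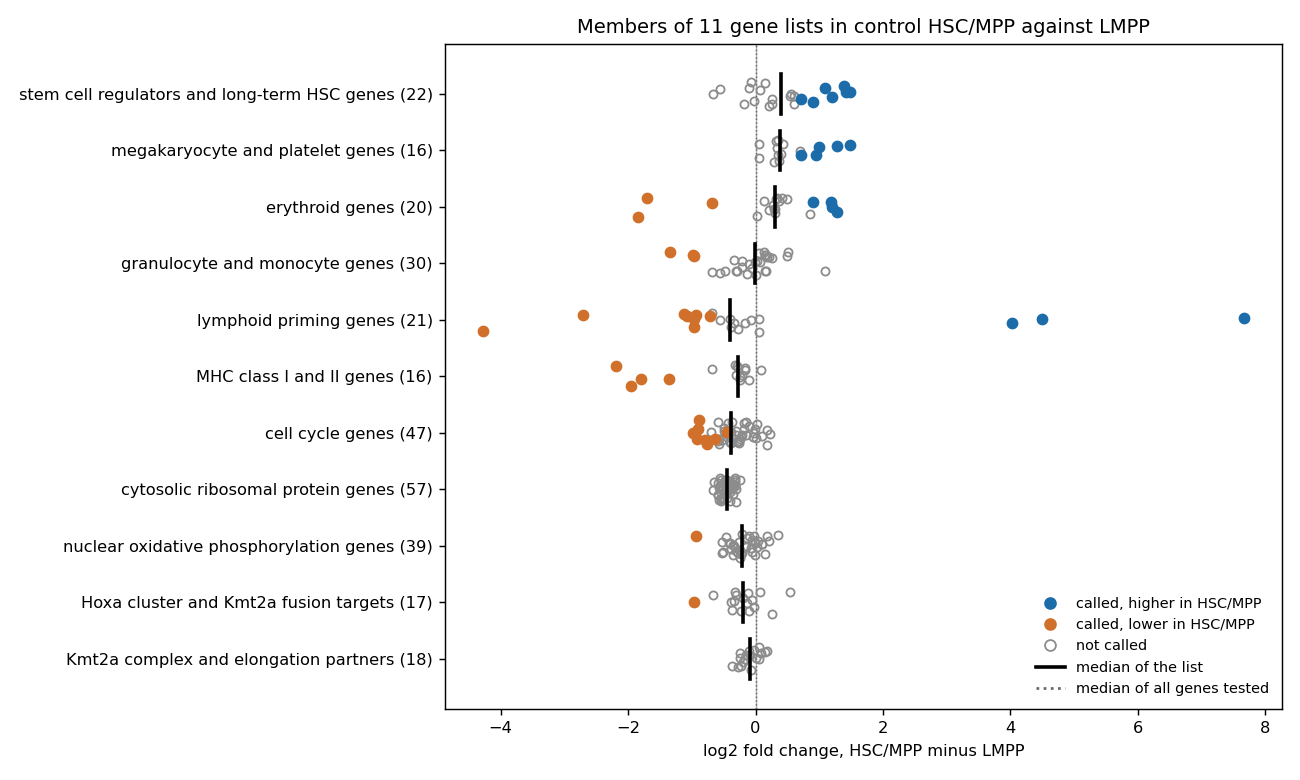
log2 fold change (HSC/MPP minus LMPP) of the tested members of 11 gene lists, with the number tested in parentheses. Filled points passed an edgeR adjusted p of 0.05, open points did not, bars are list medians and the dotted line is the median of all genes tested, 0.012. The stem cell list has 7 called genes on the higher side, the cell cycle list 8 on the lower side, and 3 immunoglobulin-related genes of the lymphoid list lie at 4.03 to 7.67.

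Genes of homing divided between the types. Of 26 listed, 17 passed, 1 was called higher in HSC/MPP (Itga2b) and 2 lower, among them Cxcr4. The shares of all genes tested were 0.549% higher and 1.69% lower. Cxcr4, the receptor that holds progenitors in the marrow, had 14.6 to 18.9 CPM in HSC/MPP and 20.3 to 37.7 CPM in LMPP (-0.77 ± 0.17, edgeR adjusted p = 0.0309; 0.0583 with the mouse as a block; up to 0.103 without the HSC/MPP library of mouse 1). Cytokine receptor and signalling genes gave 24 tested of 32, 2 called higher (among them Tgfbr3), the gate gene Flt3 and Notch1 called lower and a median of -0.011.

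Target genes of the fusion were compared because the control and leukaemia mice were all Kmt2a-AFF1+. Whether each sorted cell carried or expressed the fusion was not tested. Of 27 listed genes of the Hoxa cluster and fusion targets, 17 passed the filter, 0 were called higher and 1 lower in HSC/MPP, Mef2c, and the median was -0.20. Hoxa9, the best known target, had 61.1, 56.5, 55.1 and 39.0 CPM in HSC/MPP and 59.3, 70.1, 81.2 and 129 CPM in LMPP; the groups overlapped and it missed the threshold (-0.67 ± 0.19, edgeR adjusted p = 0.0753). Meis1, described above, leaned the other way. Cdk6, a cell cycle kinase that the fusion is known to drive, had 162 to 209 CPM in HSC/MPP and 146 to 353 CPM in LMPP (-0.39 ± 0.22, edgeR adjusted p = 0.391), beside 755 CPM in LK. Of 20 genes of the Kmt2a complex and elongation partners, 18 passed and 0 were called; the smallest p was that of Kat7, an acetyltransferase (-0.28 ± 0.10, edgeR adjusted p = 0.171).

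The mean level in LK was set beside those of the called genes as a description. Of the 61 genes higher in HSC/MPP, the LK mean lay below both types for 29, between them for 14 and above both for 18. Tgm2 and Mycn were among the first, Itga2b and F2r among the second and Car1, Aqp1, Zfpm1 and Apoe among the third. Of the 188 genes lower in HSC/MPP, the LK mean lay above both for 114 (60.6%), between for 38 and below both for 36. Plac8, Clec12a and Top2a belonged to those above both, whereas Flt3 fell below both. The share of called lower genes with LK above both was thus near that of all tested genes whose HSC/MPP mean was below that of LMPP, 63.8%, and LK lay between for 20.2% of the called ones, against 8.19% of all. For genes higher in HSC/MPP, LK lay below both for 47.5% of the called ones, against 65.3% of all whose HSC/MPP mean was above, and between for 23.0%, against 8.20%; these shares were not tested. LK libraries had a lower background share, 6.51 to 12.4%, and the part of that in these placements was not tested.

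The last comparison asked whether the difference between HSC/MPP and LMPP was unlike in control and leukaemia BM. It took the change in control BM minus the same change in leukaemia BM, over 24 BM libraries and 15232 genes. Leukaemia, the overexpressed microRNA and the deposited table change together between control and leukaemia mice, so they cannot be told apart. In the labels, leukaemia HSC/MPP and LMPP libraries carry different mouse identities, so the change there is between animals, whereas the control types share mice. The difference was called for 1 gene (0.00657%), Auts2, which encodes a regulator of transcription linked to Polycomb complexes, and 2310 genes had an unadjusted p under 0.05. Auts2 had 86.5, 102, 79.1 and 111 CPM in control HSC/MPP and 127, 98.7, 100.4 and 59.7 CPM in control LMPP, which overlapped (log2 fold change -0.028 ± 0.26). In leukaemia it had 37.1, 73.8, 77.4 and 70.8 CPM in HSC/MPP and 12.9, 7.35, 12.9 and 15.3 CPM in LMPP, which did not overlap (2.42 ± 0.28). The difference was -2.44 ± 0.38 (edgeR adjusted p = 0.0173); with the control mice as blocks its adjusted p was 0.0985, and it lost the call in 7 of the 16 fits that left out a library (adjusted p 0.00203 to 0.0783). The background share, given above for controls, was 13.5 ± 8.73% in HSC/MPP and 2.70 ± 2.51% in LMPP of leukaemia BM (SD, n = 4 each), and its part in this difference was not tested.

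**Figure D5:**
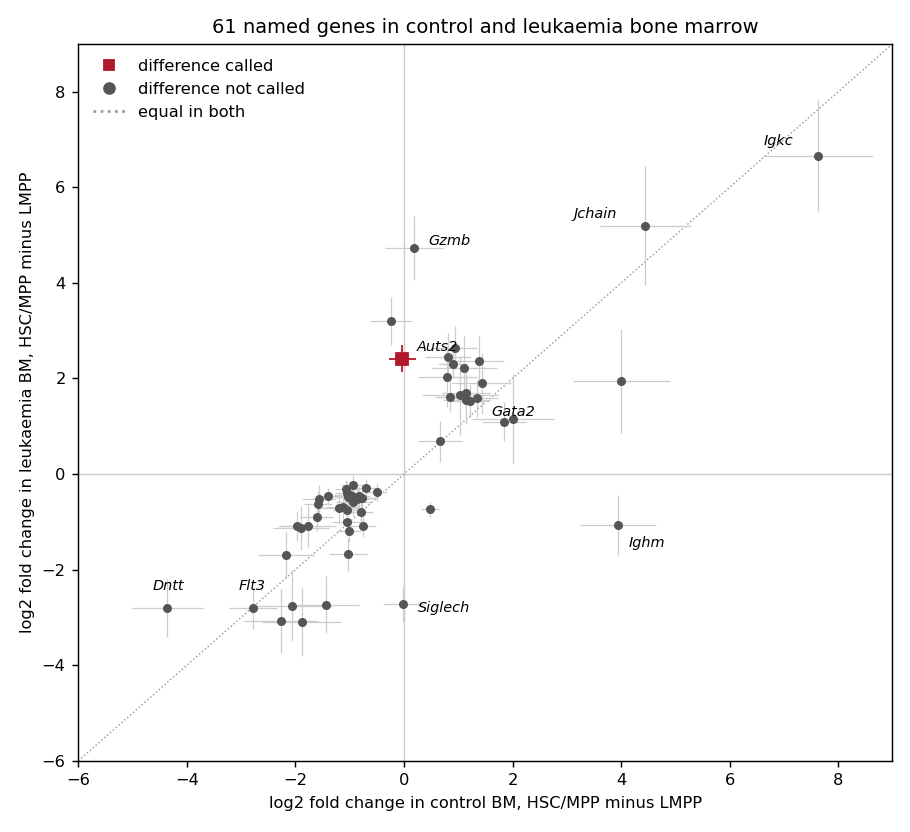
log2 fold change of HSC/MPP minus LMPP in control BM (horizontal) and leukaemia BM (vertical) for 61 named genes, with bars of 1 standard error. The red square is Auts2, the 1 gene whose difference was called, and the dotted line marks equal changes. Ighm lies at 3.94 in control and -1.07 in leukaemia, while Dntt and Flt3 are negative in both.

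Most called genes kept their direction in leukaemia. Of the 249, 232 had the same sign there, 53 of the 61 higher and 179 of the 188 lower, where 48.6% of all genes tested were higher and 51.4% lower in leukaemia HSC/MPP; 92 were called with the same sign and 1 with the opposite, beside 2800 calls (18.4%) in leukaemia over all genes. In this fit Flt3 had log2 fold changes of -2.79 ± 0.44 in control and -2.80 ± 0.44 in leukaemia, and Dntt of -4.36 ± 0.66 in control and -2.80 ± 0.60 in leukaemia. H2-Ab1 stood at -2.27 ± 0.68 in control and -3.07 ± 0.67 in leukaemia, and Gata2 at 1.34 ± 0.39 in control and 1.58 ± 0.39 in leukaemia. The difference between the arms passed for none of these 4. Igkc stood at 7.63 ± 1.01 in control and 6.65 ± 1.17 in leukaemia. Ighm stood at 3.94 ± 0.70 in control and -1.07 ± 0.63 in leukaemia, a difference of 5.01 ± 0.94 that missed the threshold (edgeR adjusted p = 0.0554) and was 3.06 without the control HSC/MPP library of mouse 3. The other genes of smallest p were the pseudogene Kars-ps1 (-3.44 ± 0.63), Rexo2, an exonuclease (1.21 ± 0.23), Gzmb, the cytotoxic protease granzyme B (-4.54 ± 0.85), each with an edgeR adjusted p of 0.0554, and Siglech, a receptor of plasmacytoid dendritic cells (2.71 ± 0.52, 0.0672). Gzmb averaged 8.14 CPM in control HSC/MPP and 7.22 CPM in control LMPP, and 13.5 CPM in leukaemia HSC/MPP and 0.379 CPM in leukaemia LMPP. Siglech averaged 17.0 CPM in both control types, and 14.2 CPM in leukaemia HSC/MPP and 92.7 CPM in leukaemia LMPP.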

How the data were processed

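The authors deposited 2 tables of counts per gene, 24 leukaemia libraries in one and 12 control libraries in the other, over 55414 gene identifiers. Although the names of these tables speak of normalisation, every deposited value is a whole number and library totals differ, so they were used as counts. Per the labels' protocols, RNA came from the Quick-RNA Microprep Kit and libraries from the SMARTer Stranded pico-input kit for total RNA (v3). The submitters' processing notes name DESeq2 and the build GRCm39. Not given in the sources used here were the aligner, the counter and whether strand was used, so overlapping, antisense and near-identical genes are uncertain. Symbols and exon lengths, for 52081 identifiers, came from GENCODE of another mouse build, so no coordinates beyond 2 promoter windows are given.

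A library's background per kb was taken from 1502 sensory receptor genes. A gene was tested when its count exceeded 3 times that background for its length plus 10 in at least 4 libraries. After scaling (trimmed mean of M values) the quasi-likelihood test of edgeR 4.0.16 was run in R 4.3.3, all 12 control libraries sharing the spread, with Benjamini-Hochberg adjustment over all genes tested and a threshold of 0.05. Errors of log2 fold changes are standard errors. Levels are counts per 1000000 after that scaling, over genes tested. Alternatives used limma 3.58.1 and DESeq2 1.42.0. The main fit, the block, another scaling, DESeq2, limma and the comparison with leukaemia were tested on simulated data. That simulation gave all genes the same spread. Fits with other filters, fewer libraries, the covariate or the block in the comparison with leukaemia were not tested in this way.

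Mouse identities in the labels pair the libraries; should they not be separate animals, as the design text's singular would have it, the p-values measure technical spread. The deviations of HSC/MPP and LMPP libraries of the same mouse from their group means correlated at -0.18, -0.02, -0.02 and -0.19 over genes. No 2 libraries were alike within sampling noise (chi-square per degree of freedom 3.19 to 55.6 within groups).

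There were 26 gene lists with 605 of 608 genes matched, plus the plasma cell list. Members, lists and rules were chosen with earlier results of these data known. Named genes are the 12 largest changes in each direction among calls with the same sign in 4 of 4 mice. Predicted, antisense, pseudogene and ribosomal names were left out there. Also named are list members that passed, up to 4 members of smallest p in a list and the gate genes. The 6 genes of smallest p for the difference between control and leukaemia BM were named too. Others named, including genes given to describe a list's defining members, were chosen after their values were seen. Results of some genes are not reported here.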

Additional observations from a re-analysis of the deposited data

Results flagged for a closer look

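In 13 of 128 groups of 4 libraries examined (10.2%), 1 library stood apart from the others by Dixon's test, where chance gives about 1 in 20. In HSC/MPP of mouse 3 these were Ighm at 5469.5 CPM, Igkc at 2776 CPM, Jchain at 719 CPM, Cd74 at 82.3 CPM and F2r at 53.3 CPM, each above the other HSC/MPP libraries. In HSC/MPP of mouse 1 they were Flt3 at 52.1 CPM and Btg2 at 17.3 CPM, above the rest, and Aqp1 at 25.2 CPM, below it. In HSC/MPP of mouse 4 they were Mpeg1 at 18.7 CPM, above the rest, and the library total of 3.55 M counts (1000000), below it. Among LMPP libraries, Jchain stood out at 21.4 CPM in mouse 4, Zfpm1 at 29.0 CPM in mouse 1 and Car1 at 4.23 CPM in mouse 3. For Auts2 the change between HSC/MPP and LMPP differed between control and leukaemia BM by -2.44 on the log2 scale (control minus leukaemia).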

How the results depend on the processing

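The 249 calls became 76 with a filter of 10 counts (30 higher and 46 lower in HSC/MPP), 106 with no filter (46 and 60), 479 with DESeq2 (120 and 359), 117 with limma-voom (49 and 68), 89 with the 8 libraries alone (28 and 61) and 76 with their background share as covariate (29 and 47). With the replicate block there were 103 calls, 53 with the 8 libraries alone and 46 with the 10-count filter. The block changed no call among named genes but the 10 given in the report. Leaving out a library or a mouse gave 42 to 966 calls, the extremes without mouse 3 and without the LMPP library of mouse 1, and leaving out 1 library kept 29 of 56 named calls in each of 8 fits. Other scalings stayed within 1.5 times. Kit turned to -0.032 and -0.040 with the 10-count filter and with no filter, and Ly6a to -0.13 without LMPP of mice 1 and 4, an alternative chosen after seeing the data; neither was called. Of 1543 refits of 60 named genes, those 3 reversed and 402 lost the call. For the difference between control and leukaemia BM, the 1 call became 2 with the 10-count filter, 263 with DESeq2 and 4 with 16 libraries. It became 0 with the replicate block and 0 to 1022 without single libraries, the most without leukaemia LMPP replicate 4. The 10-count filter moved the median difference of all genes to -0.64 on the log2 scale against -0.082. The causes were not tested. Background and depth limit genes of low level, and p-values rest on 4 mice a group.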
